A study of Mus musculus with 3 samples.

Results

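The regions described here are stretches of open chromatin that held a peak under DMSO and under rapamycin but none under the mTOR kinase inhibitor AZD2014. They were selected on the peak scores: each of the 3 deposited peak lists was shortened to its highest-scoring peaks, as many as the shortest list (DMSO) holds, and overlapping peaks were merged into 21893 regions. Of these, 820 (3.75%) had a DMSO and a rapamycin peak and no AZD2014 peak. They are called AZD2014-missing regions below. In 387 of them the full AZD2014 list also had no peak, and in the other 433 it had a low-scoring peak that the shortening left out.

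The libraries were ATAC-seq, in which a transposase cuts and tags accessible DNA, from 50000 cultured hematopoietic stem cells (HSCs) each. The cells were sorted from adult mice of the genotype Mx1-Cre-/-;mTORflox/flox that had received poly(I:C). Without the Cre transgene the floxed mTOR alleles are not deleted, so the controls and both treated groups share the genotype and the injection. The treatments were DMSO (the solvent), 200 nM AZD2014 and 1 µM rapamycin, and the study asks how stem cells adapt when mTOR is targeted. The labels used here give neither the length of drug exposure nor the number of mice behind a library. There was 1 library per treatment, so no difference below has a replicate check and no p-value is given. A missing peak means only that none passed the authors' threshold, or that it fell below the shortened list. Read depth is unknown. Intervals are 95% Wilson intervals and cover counting error only.

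mTOR is a kinase that works in a pair of complexes: mTORC1 drives protein and ribosome synthesis and restrains autophagy, and mTORC2 acts on AKT and the cytoskeleton. Rapamycin binds FKBP proteins and blocks mTORC1 allosterically and incompletely, whereas AZD2014 (vistusertib) competes with ATP and blocks the kinase in both complexes. In HSCs, mTOR activity is tied to the exit from quiescence. Open regions at gene starts are promoters, most of which are open in many cell types. Those inside or between genes include enhancers, which differ more between cell types.

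Among the 820 regions, 148 touched a promoter window (250 bases before to 50 after a RefSeq gene start). For 8 genes of the gene lists used below (Cdkn2b, Creb5, Dnmt3a, Gfi1b, Junb, Meis1, Nkx2-3 and Tyms) an AZD2014-missing region held a whole window. The 250 bases before the start of 5 of them are printed 5′ to 3′ on the transcribed strand (RefSeq, GRCm38.p6, the assembly that mm10 names), because these promoters return in the results. They are Cdkn2b (chr4:89311033-89311282, minus strand), Dnmt3a (chr12:3891494-3891743, plus strand, before a start inside the gene), Gfi1b (chr2:28621983-28622232, minus), Meis1 (chr11:19018970-19019219, minus) and Tyms (chr5:30073626-30073875, minus). Capitals mark matches on either strand to 9 short motifs: GGGCGG for the GC box, CCAAT for the box of that name, CGGAAG for the ETS core, AGATAA for GATA factors, TGTGGT for RUNX factors, TGANTCA for AP-1, TGACGTCA for the CRE, CACGTG for the E-box and TATAAA for the TATA box. No motif contains the letters of another.
Cdkn2b: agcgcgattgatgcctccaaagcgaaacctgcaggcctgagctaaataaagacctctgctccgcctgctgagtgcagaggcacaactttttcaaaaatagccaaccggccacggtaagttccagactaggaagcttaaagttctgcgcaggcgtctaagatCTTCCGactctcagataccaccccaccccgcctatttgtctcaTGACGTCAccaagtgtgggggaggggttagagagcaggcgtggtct
Dnmt3a: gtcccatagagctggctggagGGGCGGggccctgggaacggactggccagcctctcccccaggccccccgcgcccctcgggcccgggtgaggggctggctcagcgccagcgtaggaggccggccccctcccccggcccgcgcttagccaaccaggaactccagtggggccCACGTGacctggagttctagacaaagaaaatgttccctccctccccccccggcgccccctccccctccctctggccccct
Gfi1b: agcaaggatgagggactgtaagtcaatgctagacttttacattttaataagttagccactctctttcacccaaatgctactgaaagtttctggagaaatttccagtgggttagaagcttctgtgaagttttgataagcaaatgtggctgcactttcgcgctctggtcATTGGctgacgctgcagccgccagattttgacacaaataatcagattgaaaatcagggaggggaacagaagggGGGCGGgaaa
Meis1: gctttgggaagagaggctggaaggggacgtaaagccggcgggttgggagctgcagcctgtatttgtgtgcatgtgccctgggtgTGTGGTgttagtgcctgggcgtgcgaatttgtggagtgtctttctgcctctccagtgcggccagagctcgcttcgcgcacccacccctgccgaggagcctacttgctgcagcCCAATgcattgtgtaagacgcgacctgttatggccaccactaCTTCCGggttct
Tyms: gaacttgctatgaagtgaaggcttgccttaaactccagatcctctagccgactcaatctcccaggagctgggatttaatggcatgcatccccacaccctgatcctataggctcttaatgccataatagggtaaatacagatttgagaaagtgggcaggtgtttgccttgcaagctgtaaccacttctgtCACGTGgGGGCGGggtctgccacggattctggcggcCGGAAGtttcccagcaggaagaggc
The Cdkn2b promoter held 1 ETS core and 1 CRE, that of Dnmt3a 1 GC box and 1 E-box, and that of Gfi1b 1 GC box and 1 CCAAT box. The Meis1 promoter held 1 CCAAT box, 1 ETS core and 1 RUNX match, and that of Tyms 1 GC box, 1 ETS core and 1 E-box. These are letter matches and do not show binding. Base composition differed among the 5, from 44.4% G and C at Gfi1b to 73.6% at Dnmt3a.

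Each peak carries a score that the authors assigned, used here only for ranks within a list. Because the rule used these ranks, they describe the regions and test nothing. The AZD2014-missing regions stood low in both lists that held them. Their median rank was 13996 under DMSO (lowest 5134, highest 17186) and 14075 under rapamycin (6463 to 17187). Of the 820, 4 stood in the upper 8594 ranks of both lists, 23 in those of the DMSO list and 11 in those of the rapamycin list. The median score was 65.6 under DMSO (50 to 205) and 69.4 under rapamycin (53.7 to 194). The 387 regions with no peak in the full AZD2014 list had nearly the same median ranks, 14064 and 14232, as the 433 with a low-scoring one, 13880 and 13963.

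**Figure D1:**
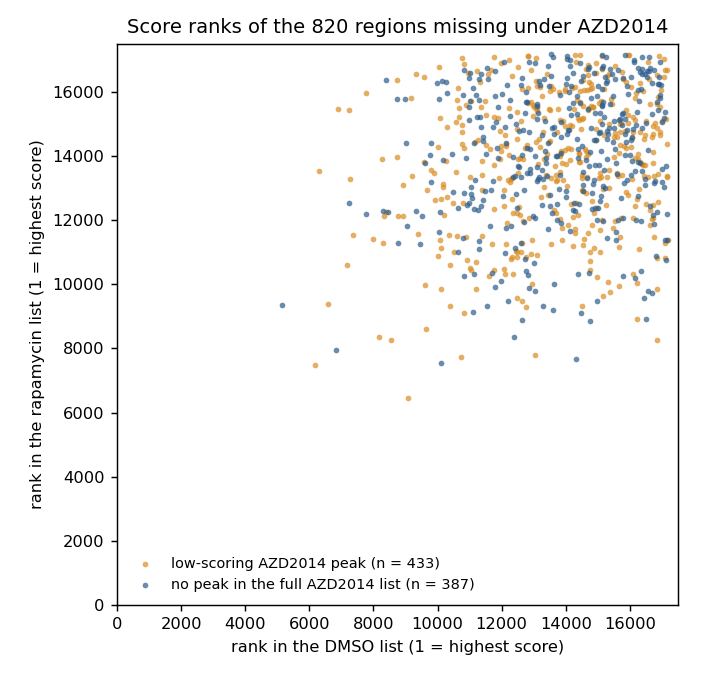
Rank of each AZD2014-missing region in the DMSO list (x axis) and the rapamycin list (y axis), where 1 is the highest score. Orange points had a low-scoring AZD2014 peak (433) and blue points had none in the full list (387). Both kinds crowd the low-ranking corner, and 4 of 820 lie in the upper 8594 ranks of both lists.

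The 433 left-out AZD2014 peaks scored 50 to 67.1 with a median of 59.9, and held ranks 17191 to 21319 of that list. Shortening had left out 4132 AZD2014 peaks and 1044 rapamycin peaks, so the lowest scores kept were 67.1 and 53.7, against 50 under DMSO. The regions just inside the limit were near Syndig1l, Cfap206, Dennd2c, Stum and Rictor, with left-out AZD2014 peaks scoring 67.1, 67.0, 67.0, 66.9 and 66.8. Just outside it, counted as present in all 3 lists, were regions near Lhfpl5, Cyc1, Bnip3, Hace1 and Tbx5, with AZD2014 scores of 67.1, 67.2, 67.2, 67.2 and 67.3. For these 433 regions the absence therefore rests on where the AZD2014 list ends. The 387 others lay a median of 18882 bp from the nearest AZD2014 peak, with 23 of them (5.94%) within 1000 bp of one and 200 (51.7%) within 20 kb.

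Regions with both a DMSO and a rapamycin peak numbered 13844, and 5.92% of them lacked AZD2014. That share depended on rank. With the poorer of the 2 ranks among the first 6000, 0 of 5232 such regions lacked AZD2014, which allows a share of up to 0.0734%. The share was 0.967% (interval 0.596 to 1.56) at poorer ranks of 9001 to 11000, 17.5% (15.6 to 19.6) at 13001 to 15000 and 33.4% (30.9 to 35.9) at 15001 and beyond. The other pairs of lists showed the same shape, at higher levels from rank 9001 on and at 0 in the first 6000. At 15001 and beyond, 38.1% (35.7 to 40.6) of regions shared by DMSO and AZD2014 lacked rapamycin, and 43.1% (40.5 to 45.6) of those shared by both inhibitors lacked DMSO. AZD2014 was thus the list least often missing alone, with 820 regions against 1079 missing under rapamycin alone and 1377 missing under DMSO alone. Of the 1079, 916 had no peak in the full rapamycin list, whereas 387 of the 820 had none in the full AZD2014 list. Shortening had left out 1044 rapamycin and 4132 AZD2014 peaks.

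**Figure D2:**
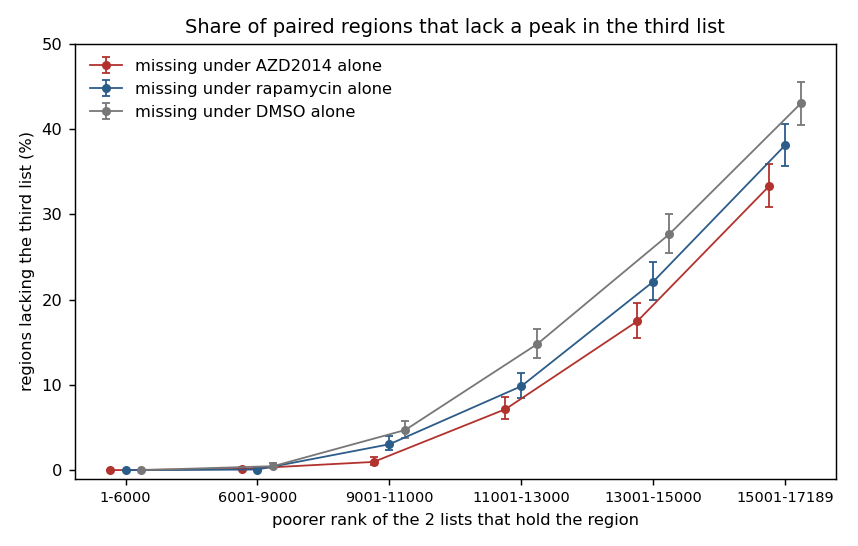
Percent of regions held by 2 lists that lacked a peak in the third (y axis), by the poorer of the 2 score ranks (x axis), with 95% Wilson intervals. Red points, regions missing under AZD2014 alone, reach 33.4% at ranks from 15001 on and lie below the blue (rapamycin) and grey (DMSO) points in each band from 9001 on.

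The AZD2014-missing regions lay mostly away from gene ends. Of the 820, 171 (20.9%, interval 18.2 to 23.8) were within 1 kb of either end of a protein-coding gene, 348 (42.4%, 39.1 to 45.8) elsewhere in a gene body and 301 (36.7%, 33.5 to 40.1) outside genes. Of all merged regions 45.2% were at a gene end, and of the 13024 regions found in all 3 lists 63.3%. The share moved with rank: among regions of all 3 lists whose poorer DMSO or rapamycin rank was past 10000, 36.7% (35.2 to 38.1) were at a gene end. That set still stands higher in rank than the AZD2014-missing regions. In matched bands the AZD2014-missing regions had 28.8% at gene ends against 40.3% of regions in all 3 lists at poorer ranks of 11001 to 13000, 16.3% against 33.1% at 13001 to 15000 and 20.7% against 27.3% beyond. Among the regions missing under rapamycin alone the share was 23.8% (21.4 to 26.5), and its interval overlaps that of the AZD2014-missing regions. The 387 regions with no peak in the full AZD2014 list had 18.3% (14.8 to 22.5) at gene ends, and the 433 with a low-scoring one 23.1% (19.4 to 27.3).

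**Figure D3:**
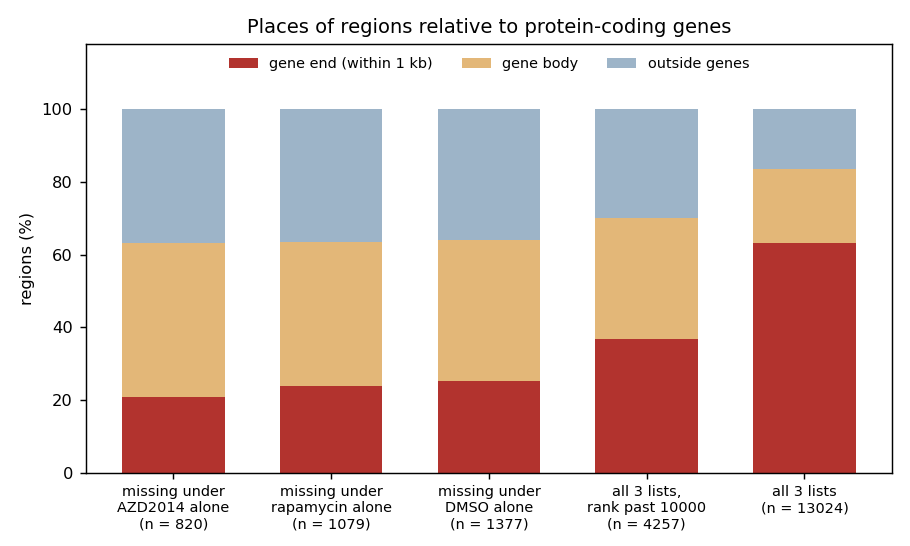
Stacked bars give the percent of regions (y axis) at a gene end, in a gene body or outside genes, for 5 sets of regions with their numbers below. The AZD2014-missing regions have 20.9% at gene ends, close to the 23.8% of regions missing under rapamycin alone and below the 36.7% of low-ranking regions of all 3 lists, a set that stands higher in rank.

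In 818 regions with 1 peak per list, the median width was 424 bp under DMSO and 535 bp under rapamycin, against 509 and 611 bp in the low-ranking regions of all 3 lists, which stand higher in rank. The middles of the DMSO and rapamycin peaks lay a median of 53.5 bp apart, against 54.5 bp in that set. Only overlapping peaks were merged, so this closeness is partly set by the rule and tests nothing. The 171 promoter windows touched by these regions had a median of 58.3% G and C and 15 CpG sites, against 60.3% and 19 in low-ranking regions of all 3 lists. A GC box was present before the start in 49.1% (41.7 to 56.6) of them, against 55.2% in the low-ranking set, 65.6% in regions of all 3 lists and 32.7% of all 32851 promoters. The ETS core, read by ETS factors, was present in 15.8% (11.1 to 22.0), against 22.2%, 30.2% and 13.6%. The RUNX letters were present in 12.9% (8.65 to 18.7), against 10.7%, 9.53% and 14.0%, and the CRE, read by CREB factors, in 3.51% (1.62 to 7.44), against 2.17%, 3.14% and 1.55%. For the other 5 motifs the shares in these windows and in the low-ranking set were 28.1% and 29.3% for the CCAAT box, 7.60% and 7.16% for GATA, 2.34% and 4.34% for AP-1, 8.19% and 9.21% for the E-box and 7.60% and 5.98% for the TATA box. Of the 9 shares in the low-ranking set, that of the ETS core lay just outside the counting interval of the AZD2014-missing windows and the other 8 lay within it. The 171 windows came from 148 regions and nearby windows can share bases, so these intervals may be too narrow.

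The 25 AZD2014-missing regions with the best poorer rank were named by their nearest gene. Of these, 19 had a low-scoring AZD2014 peak, and 7 lay at a gene end. First was a region at a gene end of Atp6v1h, a subunit of the proton pump that acidifies lysosomes, where mTORC1 is activated. Its peak scored 175 under DMSO and 166 under rapamycin, and the left-out AZD2014 peak 58.1. Actn1, which encodes an actin cross-linker, had a promoter peak scoring 116 and 194, with 61.7 under AZD2014. Vps54, a vesicle tethering gene, had one scoring 165 and 124, with 57.7 under AZD2014. All 3 peaks stood at rank 9386 or better in both other lists, and under AZD2014 they stood below the shortened list.

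At 6 of the 25 the full AZD2014 list had no peak. The region with the second-best poorer rank (chromosome 2, 98664883 to 98665297, scores 158 and 152) lay 1033211 bp from the nearest gene, Lrrc4c, in a repeat-rich stretch known for artefact signal in mouse data, and an AZD2014 peak began 877 bp away. Another was on chromosome Y (scores 205 and 124), which held 3 of the 820 regions. These were 14.3% of the 21 merged regions on that chromosome, against 3.75% over all merged regions. The remaining 4 were in the body of Snd1, an RNA-binding coactivator gene (101 and 164), at a promoter of Myadm, a myeloid-associated membrane protein gene (92.1 and 109), 5460 bp from Cd300a, an inhibitory receptor gene of myeloid cells (94.7 and 98.4), and 138413 bp from Trib1, a pseudokinase gene that acts on C/EBP factors (89.4 and 128). At Myadm an AZD2014 peak lay 1923 bp away, and the 20 kb around the gene held 1 peak in each of the shortened DMSO and AZD2014 lists and 2 under rapamycin.

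Of the 25, a further 14 had left-out AZD2014 peaks scoring 54.6 to 66.8. They lay at or nearest to Gvin1, Rybp (2 regions, 57397 and 93682 bp from the gene), Jcad, Actl6b, Helb, Plekha2, Enah, Vmn1r87, Rap2b, Zfp248, Sidt2, Taf9b and Elovl4. Rybp encodes a subunit of Polycomb complexes and Enah a regulator of actin filaments. The promoters of Actl6b, a gene of chromatin remodelling complexes in neurons, and of Taf9b, a gene of the basal transcription machinery, were among the 14. The last pair of the 25, at Cdkn2b and Dnmt3a, belong to the gene lists.

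Cdkn2b encodes p15, an inhibitor of the D-type cyclin kinases CDK4 and CDK6. The region at its only annotated start (chromosome 4, 89310358 to 89311353) ranked 7166 under DMSO and 10613 under rapamycin, with scores of 151 and 104. The AZD2014 peak there scored 58.6 and was left out. It was 1 of 2 DMSO peaks in the window, and the other, at a start of Cdkn2a, was in all 3 lists. That other region scored 54.8 under DMSO, 142 under AZD2014 and 93.0 under rapamycin, at ranks 16135, 10272 and 11451. Among 21 genes of quiescence and CDK inhibition with any region in their window, 3 had an AZD2014-missing region: Cdkn2a and Cdkn2b, which share the one above, and Cdkn1a, the p21 gene, 11741 bp from one with scores of 80.0 and 82.8 and a left-out AZD2014 peak of 66.0. These were 14.3% of the 21, against 6.5% of all protein-coding genes with any region in their window. The 3 genes rest on 2 regions, 5.13% of the 39 in these windows with DMSO and rapamycin peaks. Of all such regions 5.92% lacked AZD2014.

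Dnmt3a encodes a DNA methyltransferase that limits HSC self-renewal. It had a pair of AZD2014-missing regions. The first (chromosome 12, 3891201 to 3892059) covered the start inside the gene, from which a shorter protein is made, and scored 89.9 under DMSO and 106 under rapamycin, with a left-out AZD2014 peak of 51.2. The region at a start near the 5′ end of the gene was in all 3 lists. It scored 146, 167 and 86.6 under DMSO, AZD2014 and rapamycin, at ranks 7425, 9138 and 12024. The second (3781215 to 3782044), in the body of the neighbouring gene Dtnb and 19515 bp from Dnmt3a, scored 84.9 and 125 and had no peak in the full AZD2014 list. The window held 7 DMSO, 5 AZD2014 and 7 rapamycin peaks in the shortened lists. Dnmt3a was the only 1 of 38 chromatin and DNA methylation genes with an AZD2014-missing region (2.63%, background 6.5%).

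Of 15463 protein-coding genes with any region in their window (the gene with 20 kb on either side), 1005 had an AZD2014-missing region there, a background of 6.5%. For regions with no peak in the full AZD2014 list the background was 2.9% (448 genes). HSC transcription factor genes had 8 of 32 (25%), the highest share of the 24 gene lists, and 5 of the 8 had a region with no peak in the full AZD2014 list. Of the 62 regions in their windows with DMSO and rapamycin peaks, 14.5% lacked AZD2014, against 5.92% of all such regions. With the poorer rank past 10000, 9 of 28 did (32.1%), against a background of 16.0%. The same genes had regions missing under rapamycin alone at 7 of 32 (background 9.16%) and missing under DMSO alone at 8 of 32 (background 10.9%). A share above background was therefore seen for each of the 3 pairs, and nothing particular to AZD2014 can be read from it.

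Gfi1b, which encodes a repressor needed for red cell and platelet development and for HSC quiescence, had a pair of AZD2014-missing regions. Its promoter region (chromosome 2, 28621721 to 28622295), whose sequence is given above, scored 63.3 under DMSO and 66.6 under rapamycin, and the nearest peak in the full AZD2014 list lay 18384 bp away. The second, 9638 bp past the gene, scored 62.7 and 60.2, with a left-out AZD2014 peak of 54.3. The stronger region beside it was in all 3 lists. It scored 154, 300 and 163 under DMSO, AZD2014 and rapamycin, at ranks 7006, 5144 and 7563. Meis1, a homeobox gene of HSC self-renewal, had its promoter region (chromosome 11, 19018640 to 19019367) at rank 10050 under DMSO and 16781 under rapamycin. The scores were 102 and 55.3, and the left-out AZD2014 peak scored 62.6, so in rapamycin and AZD2014 alike it stood near the end of the list. The other 4 regions of its window were in all 3 lists, among them one just upstream of the start, with an AZD2014 score of 82.1.

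**Figure D4:**
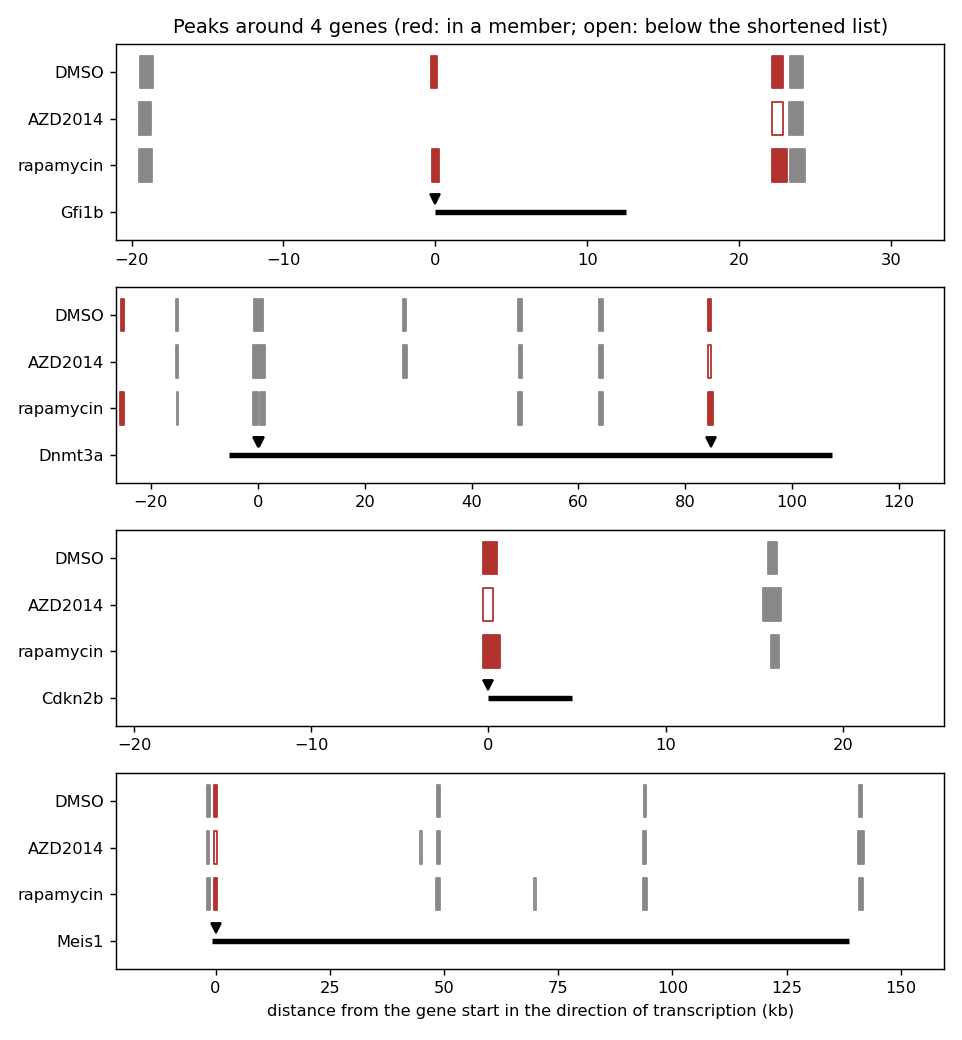
Peaks of the full DMSO, AZD2014 and rapamycin lists around Gfi1b, Dnmt3a, Cdkn2b and Meis1, by distance in kb from a gene start (triangles mark starts, the black bar the gene). Red boxes belong to AZD2014-missing regions and open boxes fell below the shortened list. The Gfi1b promoter has no AZD2014 box, while those of Cdkn2b and Meis1 and the inner start of Dnmt3a have open ones.

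The other 6 HSC transcription factor genes carried the region in the gene body or, for Nkx2-3, at the promoter. Tal1, a helix-loop-helix master factor of blood formation, had one 5298 bp past a start (scores 71.0 and 57.7). Ikzf1, the Ikaros gene, had one scoring 75.2 and 69.7, Bcl11a, a repressor gene of fetal globin and lymphoid development, one scoring 53.8 and 87.2, and Zfpm1, the gene of the GATA cofactor FOG1, one scoring 65.3 and 54.3. None of these 4 regions had a peak in the full AZD2014 list, and each gene had another region, within 1 kb of a gene end, in all 3 lists. At Bcl11a that region did not cover the annotated start, which lay in a region of the rapamycin list alone. Lmo2, a bridging cofactor of Tal1 and GATA factors, had one scoring 61.5 and 91.0 with a left-out AZD2014 peak of 56.9. The Nkx2-3 region ranked 17186 under DMSO, among the last peaks kept, and scored 50 there, 93.7 under rapamycin and 55.8 under AZD2014. Among 23 HSC surface and niche genes 2 had an AZD2014-missing region (8.70%, background 6.5%). They were Cd34 (60.6 and 61.0, left-out AZD2014 peak 64.9) and Esam, 14071 bp from a region at the Nrgn promoter (108 and 71.6, no AZD2014 peak).

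Erythroid and megakaryocyte genes had an AZD2014-missing region at 5 of 25 genes (20%, background 6.5%), the second-highest share, and 4 of the 5 had no peak in the full AZD2014 list there. Itgb3, the integrin beta-3 gene of platelets, had a pair, at a gene end (60.9 and 79.0) and 11140 bp away (54.1 and 60.1). Its window held 5 DMSO, 3 AZD2014 and 4 rapamycin peaks in the shortened lists. Tfrc, the transferrin receptor gene, had one in the gene body (59.6 and 65.4) and kept its promoter region in all 3 lists (257, 388 and 314 under DMSO, AZD2014 and rapamycin). Gp1ba, a platelet von Willebrand receptor gene, lay 16231 bp from one (77.4 and 70.1). As with the HSC factors, shares were also above background for regions missing under rapamycin alone (4 of 25) and under DMSO alone (5 of 25).

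Among 31 cell cycle genes 4 had an AZD2014-missing region (12.9%, background 6.5%), 3 of them without a peak in the full AZD2014 list. Of the 66 regions in their windows with DMSO and rapamycin peaks 6.06% lacked AZD2014, near the background of 5.92%. With the poorer rank past 10000, 4 of 16 did (25%, background 16.0%). Regions missing under rapamycin alone were also found at 4 of the 31 genes (background 9.16%). Tyms, the thymidylate synthase gene, had its AZD2014-missing region at the promoter (chromosome 5, 30073279 to 30073903), with scores of 90.6 under DMSO and 81.9 under rapamycin, and the nearest AZD2014 peak lay 40480 bp away. Its window held 1, 0 and 1 peaks under DMSO, AZD2014 and rapamycin in the full lists. Ccnd2, which encodes the D-type cyclin used in blood cells, had a region 2426 bp from the gene (86.8 and 56.2) and 1705 bp from an AZD2014 peak, and the region at its near end was in all 3 lists. Mcm5, a replication helicase gene, lay 15554 bp from one (63.4 and 62.1), and Cdk4 7720 bp from one with a left-out AZD2014 peak of 51.3.

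Among 56 mTOR pathway genes 6 had an AZD2014-missing region (10.7%), and the share of their regions with DMSO and rapamycin peaks that lacked AZD2014 was 5.71%, near the background of 5.92%. Rictor, the defining subunit of mTORC2, had one 2540 bp from the gene (68.6 and 95.2), whose left-out AZD2014 peak scored 66.8, just under the limit. Its promoter region was in all 3 lists (165, 233 and 273 under DMSO, AZD2014 and rapamycin). Grb10, an adaptor that mTORC1 phosphorylates and that dampens insulin signalling, had one in the gene body (86.3 and 67.0), and Pik3cd, the PI3 kinase delta gene, another (92.3 and 55.6), both with no AZD2014 peak. Prr5l, a gene of an mTORC2-binding protein, had one at DMSO rank 6317 and rapamycin rank 13524, with a left-out AZD2014 peak of 58.7. Tsc1 was counted only through the Gfi1b promoter region, 18698 bp away, and Pik3r2 through a region 14557 bp away that lay 163 bp from an AZD2014 peak.

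In the signalling lists, 3 of 30 NF-kB, JAK-STAT and SOCS genes had an AZD2014-missing region, all in gene bodies and none with a peak in the full AZD2014 list. They were Nfkb1 (60.0 and 83.4), which encodes an NF-kB subunit, Ikbkb (76.0 and 72.7), which encodes a kinase that releases NF-kB, and Jak1 (67.5 and 82.1), a cytokine receptor kinase gene. Among 31 cytokine and TGF-beta receptor genes there were 3, Csf2ra, Smad7 and Ski, and of these only the region of Ski, a Smad repressor gene, had no AZD2014 peak (63.8 and 81.8). Immediate early and AP-1 genes had 4 of 28, at Junb, Ier2, Klf4 and Zfp36, each with a left-out AZD2014 peak scoring 50.9 to 63.9. At Junb, an AP-1 subunit gene, the region was the promoter (75.1 and 87.2, left-out AZD2014 peak 59.7). Among 41 MAPK, MNK and CREB genes there were 2, Map3k5 and Creb5. The Creb5 promoter region scored 51.5 under DMSO and 84.6 under rapamycin, and the nearest AZD2014 peak was 82298 bp away. In the order given, these 4 lists had shares of 10%, 9.68%, 14.3% and 4.88% of genes, against a background of 6.5%. Of the regions in their windows with DMSO and rapamycin peaks, 4.62%, 6%, 5.88% and 2.38% lacked AZD2014. The background for such regions was 5.92%, so at most a small excess was seen in any of the 4.

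In the remaining lists 0 to 2 genes had one. No AZD2014-missing region lay in the windows of 26 Myc network and ribosome synthesis genes, 27 lipid and sterol synthesis genes or 8 mast cell and basophil genes. There was 1 each among 43 translation factor genes (Eif5a, through a region at the Ybx2 promoter), 32 interferon response genes (Irf2), 28 stress response genes (Eif2ak1), 18 housekeeping genes (Pgk1, through a region at Taf9b), 18 B and T cell genes (Ebf1) and 10 non-blood genes (Ttn), shares of 2.33% (translation) to 10% (non-blood). There were 2 each among 38 autophagy and lysosome genes (Atg7 and Gabarapl2), 29 glycolysis and hypoxia genes (Aldoa and Pgk1), 30 apoptosis genes (Bik and Bmf) and 18 myeloid and granule genes (Itgam and Klf4). These shares were 5.26% for autophagy, 6.90% for glycolysis, 6.67% for apoptosis and 11.1% for myeloid genes, so they lay on both sides of the 6.5% background. Over all lists, 53 of 665 genes with any region had one (7.97%), against the background of 6.5%. The lists also differed in rank. Of the 48 regions with DMSO and rapamycin peaks at Myc network genes, 10 had a poorer rank past 10000, against 28 of 62 at HSC transcription factor genes.

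**Figure D5:**
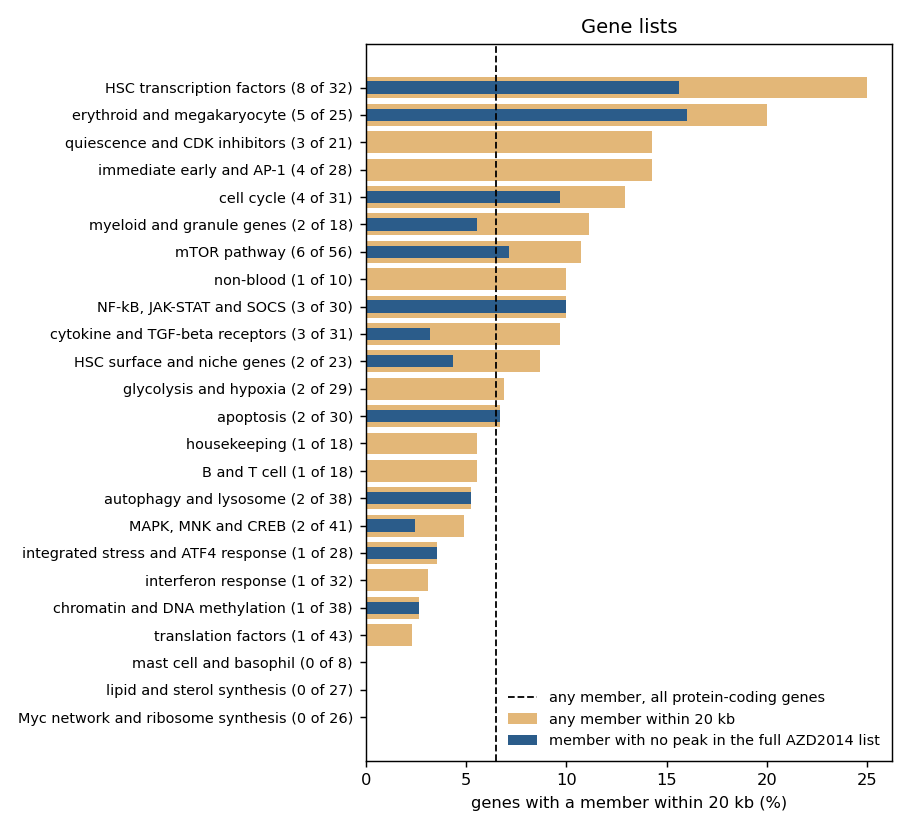
Percent of genes (x axis) with an AZD2014-missing region within 20 kb, for 24 gene lists, with the number of genes in brackets. Blue bars count only regions with no peak in the full AZD2014 list, and the dashed line is the 6.5% of all protein-coding genes. HSC transcription factors (25%) and erythroid and megakaryocyte genes (20%) stand at the top, and 3 lists are at 0.

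Of the 1005 genes, 965 had a single AZD2014-missing region, 39 had 2 and only Mbnl1, a splicing regulator gene, had 3. All 3 Mbnl1 regions had left-out AZD2014 peaks (63.1, 60.9 and 63.6), and in the full lists its window held more AZD2014 peaks (9) than DMSO or rapamycin peaks (6 each). No protein-coding gene lay within 20 kb of 177 regions (21.6%). Among the chromosomes other than Y, the AZD2014-missing share of regions ran from 2.73% on chromosome 9 to 4.95% on chromosome 3. At gene ends, 189 genes had an AZD2014-missing region, 150 of them had no other gene-end peak in the shortened AZD2014 list, and 60 had none in the full list. No background share was computed for these gene counts, and none for the other pairs of lists, so nothing particular to AZD2014 can be read from them.

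Gene-end peaks at cell type markers did not set the labelled HSCs apart from erythroid or B cells. Of 12 HSC markers, 6 had a gene-end peak under DMSO, 7 under AZD2014 and 6 under rapamycin. Procr, Gata2, Slamf1 and Ly6a were among those lacking one in all 3 lists. Of 4 erythroid markers 2 had one in each list, and of 4 B cell markers 1 under DMSO and 2 under each inhibitor, shares close to that of the HSC markers except for B cell markers under DMSO. Myeloid markers had 0 to 2 of 5, mast cell markers 0 to 2 of 4, T cell markers 0 of 4 and non-blood markers 0 or 1 of 5. Mpo, Ly6c2 and Cpa3 had a gene-end peak under rapamycin alone. Their part in the AZD2014-missing regions was not tested.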

How the data were processed

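ATAC-seq peak lists of 3 libraries (DMSO, AZD2014, rapamycin), grouped by sample title, were used. Transposition, per the labels' protocols, ran for 30 min at 37 °C, followed by PCR and sequencing on a HiSeq 2500. The build was mm10 and the tools included CASAVA, per the submitters' processing notes. Each library has its own list from the authors, in which every peak has a score and a name with the word MACS. Of the aligner, the caller's settings, duplicate removal and any transposase shift, all of which bear on weak peaks, the sources used here say nothing.

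Lists were shortened by score, then width, then position, and peaks sharing at least 1 bp were merged. Starts are written from 1. Gene positions came from the RefSeq table of GRCm38.p6 with 21887 protein-coding genes, and gene starts, promoter and miRNA sequences from the RefSeq tables of that build. Of 714 listed genes 713 matched (not Tpsab1). A few listed genes are counted but not reported here by name. The 24 lists, the regions and the rule for named genes were chosen with earlier results of these data known. Named were the 25 regions with the best poorer rank, listed genes whose region had no peak in the full AZD2014 list, and genes with 3 or more regions; other listed genes were added, and further genes were chosen after their values were seen. Motif letters and the rank limit of 10000 were also set after the data were seen. The merging code was tested on simulated data, altered copies of the DMSO list, where 200 of 200 removed peaks were found and 0 others. Python 3.11.15, numpy 2.4.6, pandas 2.3.3, scipy 1.17.1 and matplotlib 3.10.9 were used. Alternatives were other list lengths, overlap rules, peak widths, chromosomes, gene ends and gene windows.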

Additional observations from a re-analysis of the deposited data

How the results depend on the processing

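The number of AZD2014-missing regions depended on list length. It was 820 with lists as long as the DMSO list, 449 with the full lists, 501 with lists of 12000 and 104 in the upper 50% of each list. Joining peaks only with a reciprocal overlap of 50%, joining across 500 bp, setting peaks to 200 bp and leaving out chromosome Y moved it by less than 1.5 times. Those with no peak in the full AZD2014 list numbered 387, and 19 with lists of 12000, 1 in the upper 50% and 649 with 200 bp peaks. The share at gene ends was 20.9%, and 18% with full lists, 31.9% with lists of 12000, 37.5% in the upper 50%, 31.2% with 200 bp peaks and 26.8% with gene ends of 2500 bp. The share outside genes was 36.7%, and 31.7% in the upper 50% and 31.1% with 200 bp peaks. Genes within 20 kb numbered 1005, and 519 with full lists, 158 in the upper 50%, 504 with the gene body alone and 1670 with 50 kb on either side. The causes were not tested. Of 41 alternative values in all, 24 stayed within 1.5 times the reported count or, for a share, within its 95% Wilson interval. No paired analysis was possible because each treatment had 1 library. Depth is unknown, so how many missing peaks reflect fewer reads was not tested.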

Other observations

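MicroRNA genes near the AZD2014-missing regions were looked up after the regions were known. Of 568 miRNA hairpins within 20 kb of any region, 29 lay within 20 kb of one of 25 AZD2014-missing regions. One of these regions (chromosome 8, 84207770 to 84208187, scores 64.5 under DMSO and 58.0 under rapamycin, no peak in the full AZD2014 list) ended 331 bp before Mir23a, the first hairpin of the cluster with Mir27a and Mir24-2. This cluster is known for favouring myeloid over B cell development in the mouse. Another (chromosome 5, 64969786 to 64970470, scores 79.7 and 98.7, no AZD2014 peak) contained the Mir574 hairpin and the Fam114a1 promoter. The mature sequences (RefSeq, GRCm38.p6) are given with the seed, bases 2 to 8, in capitals, and no pair of these 4 shares a seed.
mmu-miR-23a-3p: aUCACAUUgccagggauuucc
mmu-miR-27a-3p: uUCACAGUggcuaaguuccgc
mmu-miR-24-3p: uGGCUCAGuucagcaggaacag
mmu-miR-574-3p: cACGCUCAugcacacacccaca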
